A study of Saccharomyces cerevisiae with 16 samples.

Results

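The UTP, NOP and RRP genes of budding yeast (Saccharomyces cerevisiae) are 3 name families of ribosome assembly factors. A gene was taken as a member when the array's annotation gave its probe set a single symbol made of UTP, NOP or RRP and digits. This gave 53 of 5449 genes with a probe set, of which 18 are UTP, 17 NOP and 18 RRP genes. Each had 1 probe set, and they were all 53 genes so named in the yeast gene table used for names (assembly R64). The members lie on 14 chromosomes, 11 of them on chromosome IV, and in that table no member is the direct neighbour of another.

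Ribosomes are built in the nucleolus, where a long precursor RNA is cut, folded and modified into the RNAs of the small and the large subunit. UTP proteins (named for their association with the U3 snoRNA) belong to the small-subunit processome, which packages the first-made part of the precursor. NOP (nucleolar) and RRP (ribosomal RNA processing) proteins act at several steps, from modification by small nucleolar ribonucleoproteins (snoRNPs) to trimming by the RNA exosome. In growing yeast these genes are known to be transcribed together in response to growth signals.

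The study asked how RNA synthesis depends on TFIID, the general transcription factor that holds Taf4 and Taf5, by moving a subunit out of the nucleus. All groups used here carry one genotype on a W303 background, with MATalpha, the tor1-1 mutation, the disruption fpr1::NAT, the anchor RPL13A-2xFKB12::TRP1 and the tagged allele TAF4-FRB::HYGRO. In these anchor-away cells rapamycin ties the FRB-tagged Taf4 to a tagged ribosomal protein that is exported from the nucleus, and the tor1-1 and fpr1 alleles serve to make growth insensitive to the drug. The 4 groups, with 2 arrays each, were newly synthesized RNA with rapamycin, newly synthesized RNA with DMSO (the solvent), steady-state RNA with rapamycin and steady-state RNA with DMSO. Exposure lasted 30 min and was followed by 6 min of labelling with 5 mM 4-thiouracil. Labelled RNA purified on streptavidin is the newly synthesized fraction, and total RNA is the steady-state fraction. Wild-type cells of fission yeast (Schizosaccharomyces pombe), labelled likewise, were mixed in, 1 part to 3 parts of S. cerevisiae. No strain without a tagged subunit had rapamycin, so an effect of the drug itself and an effect of Taf4 depletion cannot be told apart.

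Values are log2 array signals after each array was shifted to the same median over 1746 S. pombe probe sets, so every change is relative to the S. pombe RNA. A lower signal can come from less RNA per cell or from fewer S. cerevisiae cells in the mixture, and these cannot be told apart. The labels do not say whether the 2 arrays of a group stem from different cultures, so the spread behind the p-values may be technical. That spread is mostly shared, since the limma fit draws the variance of each gene toward a value pooled over all genes (37.4 degrees of freedom in total). A p-value therefore rests only in small part on how far the arrays of that gene differ. Of the 16 deposited columns, 6 of the 8 labelled Taf5 hold the values of a Taf4-labelled column under the other fraction label, so the fraction labels are uncertain and only the 8 Taf4-labelled columns were used. The alpha mating markers MF(ALPHA)1 and STE3 lay between 8.50 and 13.63 on these 8 arrays and the a-specific genes MFA1, MFA2, STE2 and BAR1 between 3.39 and 6.50. TAF4 mRNA itself was 2.54-fold lower with rapamycin in newly synthesized RNA (log2 change -1.35, SE 0.22), a measure that does not show where the protein is. The median tested gene was 1.72-fold lower there. The TAF4 signals on those rapamycin arrays, 5.40 and 5.82, lay within the range of the a-specific genes and so near the floor.

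With rapamycin, newly synthesized RNA of all 53 assembly genes was lower, by 1.43-fold to 2.99-fold (limma, adjusted p from 1.40e-06 to 0.043, SE of each log2 change 0.21 to 0.24). The background was high, since 79.4% of all 4360 tested genes were lower and 1.79% higher. Both rapamycin arrays lay below both DMSO arrays for 53 of 53 members, against 92.9% of tested genes, so neither count sets the members apart. The median log2 change was -0.98 over the members (1.97-fold lower) and -0.78 over all tested genes, and 48 of the 53 members lay below the all-gene median. Members also varied less, with an SD of 0.23 between their changes against 0.44 between all genes, and 24 of 53 (45.3%) lay below the lower quartile of all changes. The narrow spread was not particular to the members, since 75 partner genes with other names, described below, had an SD of 0.21. All 53 members passed the filter on low signal, which leaves out the lowest 20% of genes by mean.

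How far the signal fell depends on the scaling of the arrays, while the members' place among all genes does not change with a common shift. With the S. cerevisiae medians made equal in place of the S. pombe medians, the all-gene median in newly synthesized RNA moved to 0.05, 10 members were lower by limma and 0 higher, against 8.88% of all tested genes lower and 15.8% higher, and 12 members had a change above 0. With the arrays as deposited and no spike-in shift, 46 members were lower and 0 higher by limma, against 48.5% of tested genes lower and 4.31% higher. The calls of 7 members described below were lost there: UTP22 (-0.36, adjusted p 0.0519 by limma), RRP7 (-0.42, 0.0568), NOP14 (-0.33, 0.0615), UTP18 (-0.41, 0.0813), RRP5 (-0.32, 0.0926), NOP56 (-0.25, 0.186) and RRP17 (-0.14, 0.628). A shift of whole arrays leaves the gap between the member median and the all-gene median at -0.20 in newly synthesized RNA. Directions below are relative to S. pombe, and the members that turn sign under equal S. cerevisiae medians are listed with the processing.

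**Figure D1:**
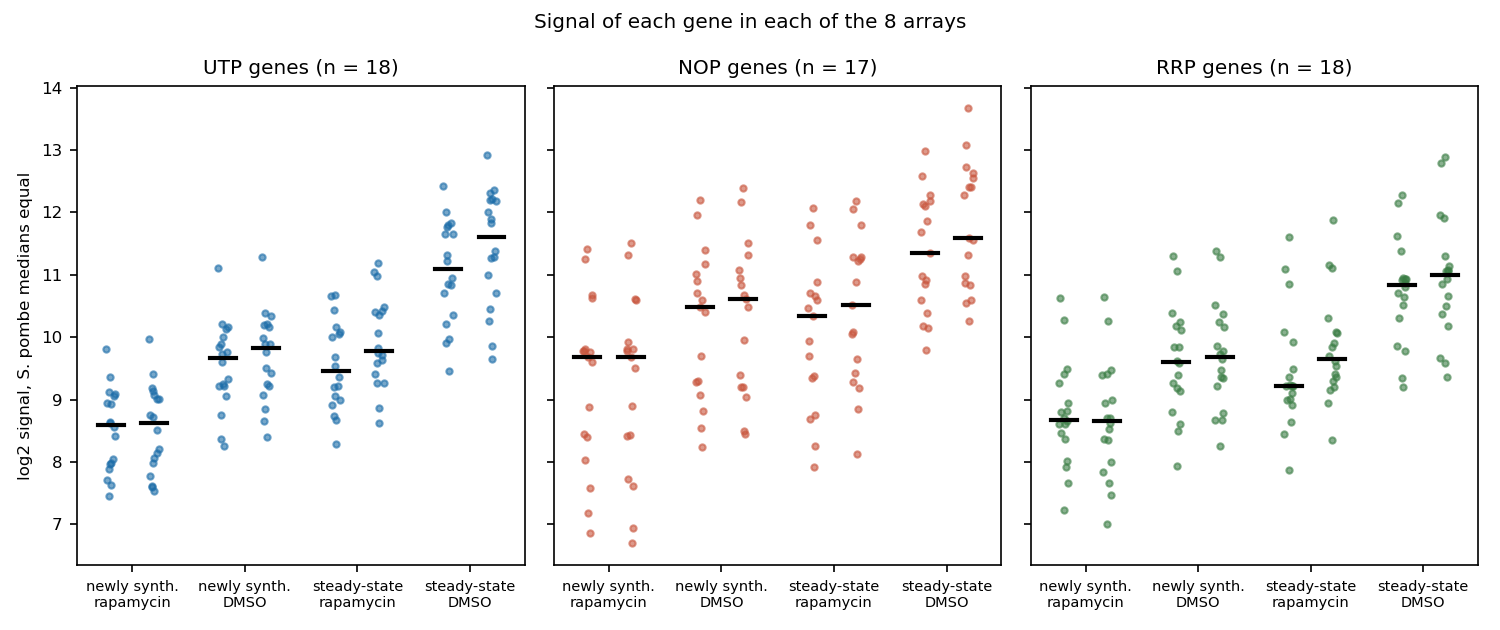
Log2 signal (vertical axis, S. pombe medians made equal) of each UTP, NOP and RRP gene on each of the 8 Taf4-labelled arrays. Points are genes, short black lines are the median of a family on an array, and each group has its replicate 1 on the left and replicate 2 on the right. Every family median is lower with rapamycin than with DMSO in both fractions; the UTP medians with rapamycin are 8.60 and 8.62 in newly synthesized RNA, against 9.67 and 9.83 with DMSO.

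The 3 name families differed little. In newly synthesized RNA the median change was -1.09 for UTP genes (2.12-fold lower), -0.90 for NOP genes (1.87-fold) and -0.93 for RRP genes (1.90-fold). The ranges overlapped widely, from -1.41 to -0.74 for UTP, -1.58 to -0.63 for NOP and -1.23 to -0.52 for RRP genes. Below the all-gene median lay 17 of 18 UTP, 15 of 17 NOP and 16 of 18 RRP genes. Medians by assembly role were farther apart than medians by name. The roles are smaller and more numerous groups, so wider gaps arise more easily, and they were drawn up with earlier results of these data known. Among the partner genes described below, other small-subunit and large-subunit factors stood in the reverse order. The widest gap between roles of more than 2 genes was that between the 13 small-subunit factors outside the named subcomplexes, with a median of -1.21, and the 5 snoRNP proteins, with a median of -0.83. These are descriptions of 2 arrays a group, and no test was made between families or roles.

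The UTPA subcomplex (t-UTP) binds the start of the precursor RNA, and its 6 members had a median change of -1.07 in newly synthesized RNA. UTP8 (YGR128C), a UTPA subunit also known for tRNA export, had 7.71 and 7.78 in newly synthesized RNA with rapamycin, against 9.23 and 9.08 with DMSO. Its fall of 2.66-fold (log2 change -1.41, adjusted p 4.89e-06 by limma) was the steepest among the UTP genes, and its steady-state signals of 8.92 and 9.41 with rapamycin also lay below the 10.71 and 10.99 with DMSO. UTP5 (YDR398W), another UTPA subunit, had 9.06 and 9.01 with rapamycin in newly synthesized RNA, against 10.13 and 10.16 with DMSO. The groups did not overlap, and UTP5 fell 2.16-fold. UTP9 (YHR196W), also of UTPA, had 9.37 and 9.41 with rapamycin and 10.21 and 10.39 with DMSO, 1.88-fold lower. UTP4, UTP10 and UTP15, the remaining subunits with a UTP name, changed by -1.05, -1.10 and -0.89. Their non-member partner NAN1 (UTP17) changed by -0.80.

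UTPB, the subcomplex that binds next to UTPA on the precursor, had a median of -1.02 over 4 members in newly synthesized RNA. UTP21 (YLR409C), a WD-repeat subunit, had 8.63 and 8.73 with rapamycin, against 9.74 and 9.89 with DMSO. UTP13 (YLR222C), likewise a WD-repeat protein, had 8.95 and 8.76 with rapamycin and 9.84 and 9.99 with DMSO. In both genes all rapamycin values were below all DMSO values, and the falls were 2.20-fold and 2.08-fold. UTP6 (YDR449C), a repeat protein of UTPB, had 7.46 and 7.60 with rapamycin, against 8.37 and 8.65 with DMSO, and was 1.97-fold lower. UTP18 (YJL069C), which recruits the Mtr4 helicase to the processome, had 8.63 and 9.14 with rapamycin and 9.60 and 9.76 with DMSO. The UTP18 rapamycin arrays were the farthest apart of these, and the change of -0.79 did not pass without rapamycin replicate 1 (-0.54, adjusted p 0.104 by limma).

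UTPC joins Utp22 and Rrp7 with casein kinase 2. UTP22 (YGR090W), its large scaffold subunit, had 7.63 and 7.53 with rapamycin in newly synthesized RNA, against 8.25 and 8.40 with DMSO. RRP7 (YCL031C), its partner, had 7.92 and 7.66 with rapamycin and 8.49 and 8.68 with DMSO. Both fell without overlap, UTP22 by 1.67-fold and RRP7 by 1.74-fold, close to the 1.72-fold of the median tested gene. The 4 casein kinase 2 subunit genes CKA1, CKA2, CKB1 and CKB2 had changes between -1.15 and -0.56.

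SnoRNP proteins carry out guided modification of the precursor RNA or, with the U3 snoRNA, help fold it. NOP56 (YLR197W), a scaffold of box C/D snoRNPs, had 10.63 and 10.62 with rapamycin in newly synthesized RNA, against 11.18 and 11.33 with DMSO. NOP58 (YOR310C), its partner in the same particles, had 11.41 and 11.50 with rapamycin and 12.20 and 12.39 with DMSO. Neither gene's groups overlapped, and the falls were 1.54-fold and 1.79-fold. NOP56 lost the call without newly synthesized DMSO replicate 2 (adjusted p 0.1 by limma), without rapamycin replicate 1 (0.0585) and without rapamycin replicate 2 (0.0615). NOP1, the fibrillarin methyltransferase of the same particles, fell 2.22-fold and was the only one of the 5 below -1 on the log2 scale. RRP9, a protein of the U3 snoRNP, and NOP10, of the box H/ACA particles that guide pseudouridine, changed by -0.83 and -0.78.

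The other small-subunit factors held the 2 steepest falls in newly synthesized RNA. NOP9 (YJL010C), a Pumilio-like protein that binds the small-subunit precursor, had 7.18 and 6.70 with rapamycin in newly synthesized RNA, against 8.55 and 8.49 with DMSO. NOP19 (YGR251W), a processome factor that helps bring in Utp25, had 6.86 and 6.94 with rapamycin and 8.25 and 8.46 with DMSO. Every rapamycin value of these genes lay more than 1 log2 unit below every DMSO value, and the falls were 2.99-fold for NOP9 (SE 0.23 on the log2 scale) and 2.74-fold for NOP19. UTP7 (YER082C), a WD-repeat protein of the processome, had 7.97 and 7.98 with rapamycin, against 9.25 and 9.50 with DMSO. UTP23 (YOR004W), a PIN-domain protein that acts with the snR30 snoRNA, had 9.82 and 9.97 with rapamycin and 11.11 and 11.29 with DMSO. These falls came to 2.64-fold and 2.47-fold, again without overlap.

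At the other end of that role, NOP14 (YDL148C), a factor needed for the small subunit, had 8.41 and 8.44 with rapamycin, against 9.07 and 9.20 with DMSO in newly synthesized RNA. The fall of 1.64-fold did not pass without DMSO replicate 2 (adjusted p 0.057 by limma). RRP36 (YOR287C), which acts in early cleavages of the precursor, had 7.66 and 7.46 with rapamycin and 8.60 and 8.78 with DMSO, 2.18-fold lower. The rest of the role, UTP11, UTP14, UTP20, UTP25, UTP30, NOP6 and RRP3, changed by -1.29 (UTP20, a very large processome protein) to -0.86 (RRP3, a DEAD-box helicase).

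RRP5 and RRP12 serve both subunits. RRP12 (YPL012W), a HEAT-repeat export factor, had 9.27 and 9.39 with rapamycin in newly synthesized RNA, against 10.38 and 10.51 with DMSO. RRP5 (YMR229C), an RNA-binding protein of both pathways, had 10.62 and 10.65 with rapamycin and 11.29 and 11.38 with DMSO. The groups were apart in both genes, at 2.17-fold and 1.63-fold, and RRP5 did not pass without DMSO replicate 2 (adjusted p 0.0528 by limma).

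Large-subunit factors process and fold the other portion of the precursor, and their 13 members had a median of -0.90 in newly synthesized RNA. RRP1 (YDR087C), a component of early large-subunit particles, had 8.95 and 9.001 with rapamycin, against 10.12 and 10.16 with DMSO. NOP16 (YER002W), also of those particles, had 9.60 and 9.51 with rapamycin and 10.41 and 10.49 with DMSO. NOP15 (YNL110C), an RNA-binding protein at the internal spacer, had 10.67 and 10.60 with rapamycin, against 11.40 and 11.51 with DMSO. All 3 fell without overlap, RRP1 by 2.24-fold, NOP16 by 1.86-fold and NOP15 by 1.76-fold. RRP17 (YDR412W), a nuclease of large-subunit processing, had 8.61 and 7.84 with rapamycin and 8.80 and 8.68 with DMSO. Its rapamycin arrays were far apart and the higher one nearly reached the DMSO arrays, so the change of -0.52 (adjusted p 0.043 by limma) did not pass without rapamycin replicate 2 (-0.14, 0.68). It was also lost without DMSO replicate 1 (0.155) or 2 (0.0851), without steady-state DMSO replicate 1 (0.0567) or 2 (0.0563), under the loess scaling (0.107), with no filter (0.105) and as deposited (0.628). The remaining large-subunit members ran from -1.32 (NOP8) to -0.80 (RRP15).

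The RNA exosome trims and degrades RNA from its 3′ end, and its 7 members had the narrowest spread of any role with more than 2 genes, an SD of 0.12. RRP6 (YOR001W), the nuclear exonuclease of the complex, had 8.02 and 8.004 with rapamycin in newly synthesized RNA, against 9.13 and 9.35 with DMSO. RRP42 (YDL111C), a subunit of the ring, had 9.50 and 9.47 with rapamycin and 10.25 and 10.38 with DMSO. They mark the ends of the role, at 2.34-fold and 1.78-fold lower, and the ring and cap subunits RRP4, RRP40, RRP43, RRP45 and RRP46 changed by -0.98 to -0.92. NOP13 (YNL175C), a nucleolar RNA-binding protein given no role here, had 8.04 and 7.73 with rapamycin, against 9.29 and 9.21 with DMSO. That is 2.57-fold lower, without overlap.

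**Figure D2:**
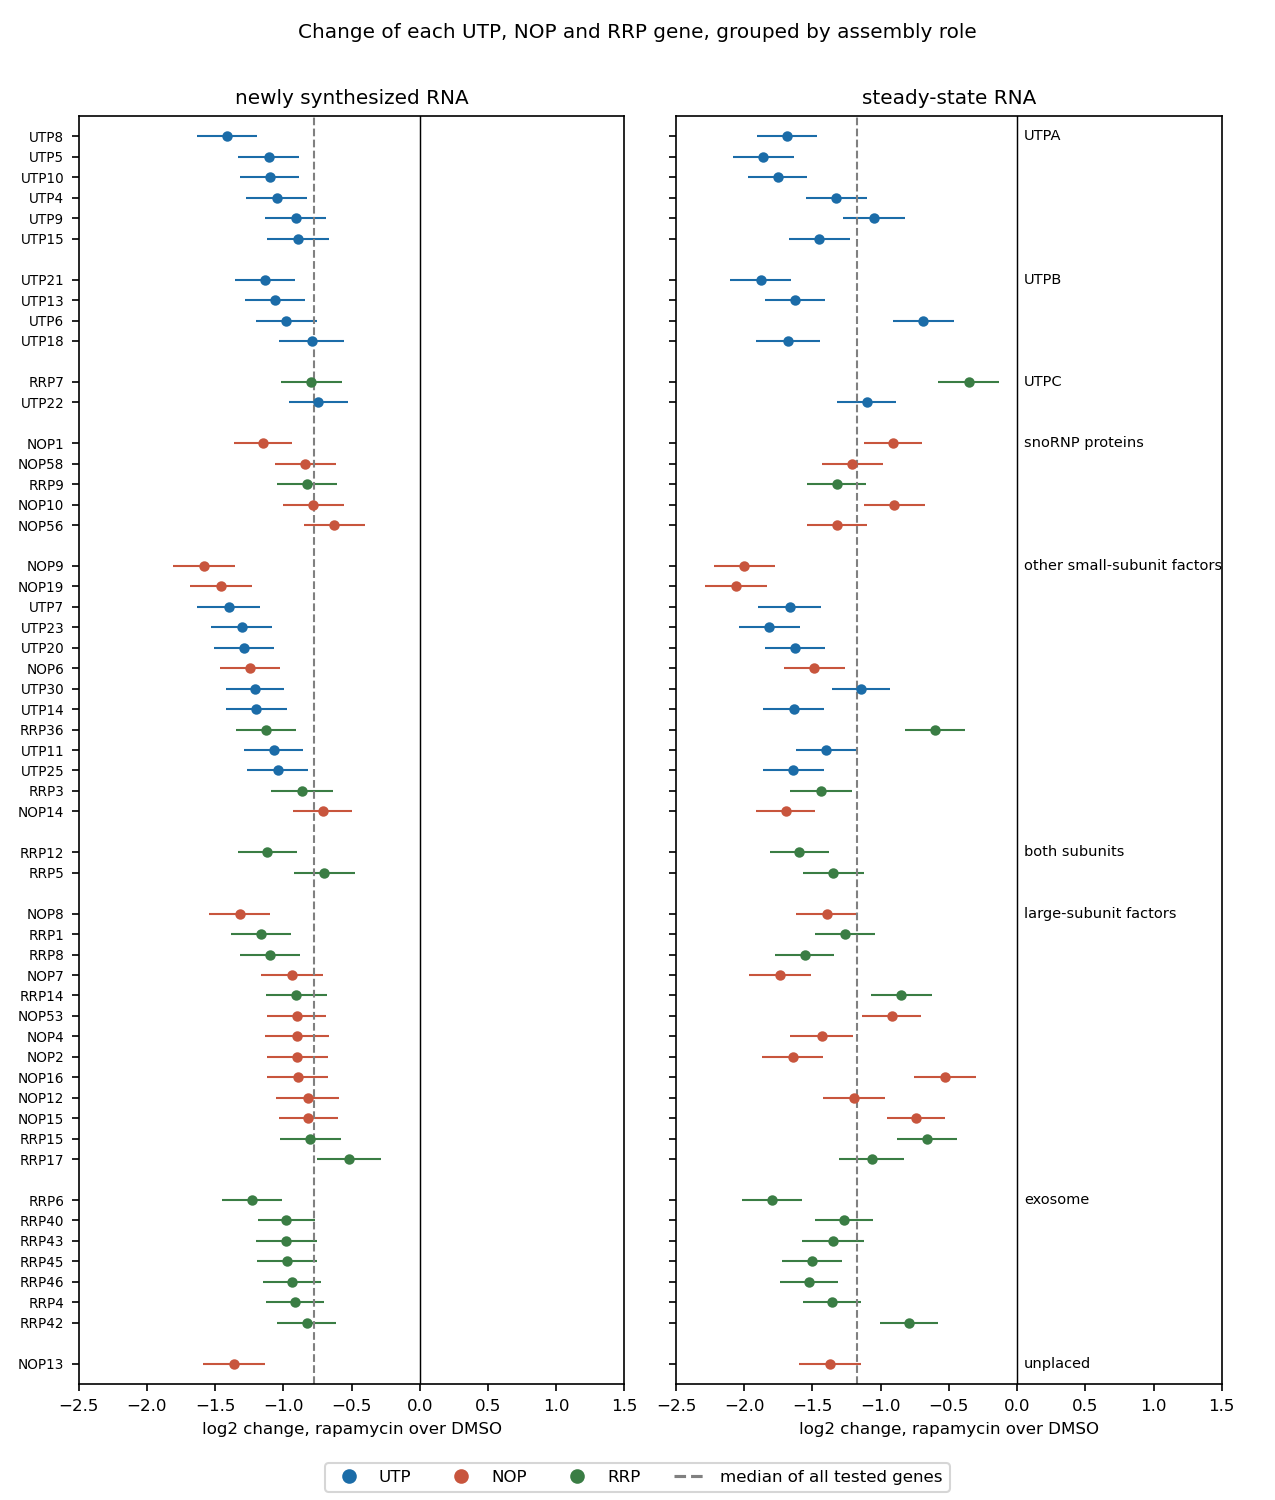
Log2 change (horizontal axis, rapamycin over DMSO, relative to S. pombe) of the 53 genes in newly synthesized RNA (left) and steady-state RNA (right). Points are limma estimates, bars are ± 1 SE (2 arrays a group), colours are name families, rows are grouped by role and the dashed line is the median of 4360 tested genes (-0.78 and -1.17). In newly synthesized RNA 48 genes lie left of the dashed line, and in steady-state RNA 38 do.

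In steady-state RNA, 52 of the 53 genes were lower with rapamycin, by up to 4.17-fold, and RRP7 did not pass (limma). Of all tested genes 86.8% were lower and 1.42% higher. Both rapamycin arrays lay below both DMSO arrays for 52 members, against 91.5% of tested genes. The median change was -1.40 over the members (2.63-fold lower) and -1.17 over all genes, 38 of 53 members lay below the all-gene median, and 20 (37.7%) lay below the lower quartile. With equal S. cerevisiae medians the split became 17 lower and 10 higher, against 17.9% of tested genes lower and 32.1% higher, and the all-gene median moved to 0.10. As deposited, 44 members were lower and 0 higher, against 68.3% of tested genes lower and 5.94% higher. The S. pombe signals were themselves uneven in this contrast: 306 of 1397 tested S. pombe probe sets were lower and 451 higher by limma (SD of changes 0.70), against 0 and 0 in newly synthesized RNA (45 at an unadjusted p under 0.05, SD 0.16). The part of that unevenness in the steady-state values was not tested beyond the loess alternative, under which the member median was -2.01 and the all-gene median -1.51.

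Steady-state changes spread more among the members than newly synthesized changes did, with an SD of 0.40 against 0.23. The same held for all tested genes (0.59 against 0.44) and for the partner genes (0.35 against 0.21), so it was not particular to the members. UTP genes had a median of -1.63 (3.10-fold lower), NOP genes -1.37 (2.59-fold) and RRP genes -1.34 (2.53-fold). The deepest medians by role were -1.66 in UTPB, -1.64 in the other small-subunit factors and -1.57 in UTPA, and the shallowest was -0.73 in UTPC. Large-subunit factors had -1.19, close to the all-gene median.

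NOP19 had 8.26 and 8.86 in steady-state RNA with rapamycin, against 10.39 and 10.84 with DMSO, and its 4.17-fold fall was the steepest of the 53. NOP9 had 7.92 and 8.13 with rapamycin and 9.79 and 10.26 with DMSO. UTP21 had 9.54 and 9.83 with rapamycin, against 11.31 and 11.82 with DMSO. The falls were 4.00-fold for NOP9 and 3.68-fold for UTP21, and in these 3 genes the groups were far apart. UTP5 had 10.05 and 10.42 with rapamycin and 11.83 and 12.36 with DMSO. UTP23 had 10.66 and 11.05 with rapamycin, against 12.43 and 12.91 with DMSO. RRP6 had 8.91 and 9.37 with rapamycin and 10.80 and 11.06 with DMSO. These falls were 3.63-fold, 3.52-fold and 3.47-fold, and none of the groups overlapped.

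RRP12 had 10.09 and 10.30 in steady-state RNA with rapamycin, against 11.62 and 11.97 with DMSO, 3.03-fold lower. UTP13 had 10.00 and 10.40 with rapamycin and 11.65 and 12.01 with DMSO, 3.09-fold lower. UTP7 had 9.06 and 9.74 with rapamycin, against 10.86 and 11.28 with DMSO. Its 3.17-fold fall came with rapamycin arrays that lay farther apart than its DMSO arrays. NOP56 had 10.89 and 11.29 with rapamycin and 12.19 and 12.63 with DMSO, and NOP58, its partner, 12.06 and 12.18 with rapamycin, against 12.99 and 13.68 with DMSO. These box C/D genes fell 2.50-fold and 2.31-fold. RRP5 had 11.10 and 11.16 with rapamycin and 12.15 and 12.80 with DMSO, 2.55-fold lower, and RRP1 9.49 and 10.06 with rapamycin, against 10.93 and 11.14 with DMSO, 2.40-fold lower. In all of them both rapamycin arrays were below both DMSO arrays.

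A smaller group had shallow steady-state changes. RRP7 had 8.65 and 9.21 in steady-state RNA with rapamycin, against 9.20 and 9.36 with DMSO. Rapamycin replicate 2 reached the range of the DMSO arrays, the only overlap in this contrast, and the change of -0.35 (SE 0.22) had an adjusted p of 0.132 by limma. Without rapamycin replicate 2 RRP7 passed (-0.63, adjusted p 0.0133 by limma), as it did under the loess scaling (-0.58, 0.0218). NOP16 had 10.60 and 11.25 with rapamycin and 11.35 and 11.56 with DMSO, a 1.44-fold fall with groups only just apart. RRP36 had 9.21 and 9.54 with rapamycin, against 9.78 and 10.18 with DMSO, a 1.52-fold fall. UTP6 had 9.20 and 9.59 with rapamycin and 9.91 and 10.26 with DMSO, a 1.61-fold fall.

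The last 3 calls were lost with the arrays as deposited, where NOP16 changed by -0.0012 (adjusted p 0.995 by limma), RRP36 by -0.075 (0.661) and UTP6 by -0.16 (0.369), and when single arrays were left out. NOP16 was lost without DMSO replicate 2 (adjusted p 0.138 by limma), without rapamycin replicate 1 (0.399), with no filter (0.056) and in a fit to the 4 steady-state arrays alone (0.0747). RRP36 was lost without DMSO replicate 2 (0.113) or rapamycin replicate 1 (0.087), and UTP6 without the same arrays (0.0596 and 0.0588). With equal S. cerevisiae medians these 3 genes and RRP7 were higher with rapamycin, by 0.53 or more on the log2 scale, as was NOP15. NOP15 had 11.56 and 11.80 with rapamycin, against 12.28 and 12.56 with DMSO, a fall of 1.67-fold relative to S. pombe. RRP42 had 9.92 and 10.09 with rapamycin and 10.94 and 10.65 with DMSO, 1.73-fold lower. Both calls were lost as deposited, where NOP15 changed by -0.21 (adjusted p 0.188 by limma) and RRP42 by -0.26 (0.18).

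For the other named genes the steady-state groups were also apart. UTP9 had 10.68 and 11.19 with rapamycin, against 11.77 and 12.20 with DMSO, and fell 2.07-fold. UTP18 had 9.69 and 10.06 with rapamycin and 11.22 and 11.89 with DMSO, and fell 3.21-fold. NOP14 had 9.35 and 9.42 with rapamycin, against 10.86 and 11.31 with DMSO, and fell 3.24-fold. These genes show how far the members differ, since UTP9 fell by less than the all-gene median and NOP14 by more. UTP22 had 8.29 and 8.63 with rapamycin and 9.47 and 9.65 with DMSO, 2.15-fold lower. RRP17 had 8.45 and 8.95 with rapamycin, against 9.85 and 9.67 with DMSO, 2.09-fold lower, a call lost as deposited (-0.54, adjusted p 0.0509 by limma). NOP13 had 8.70 and 9.29 with rapamycin and 10.18 and 10.55 with DMSO, 2.59-fold lower. No group of these genes overlapped.

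The fraction labels are uncertain, and exchanging them would reverse the sign of each difference between fractions given below. As labelled, the change in newly synthesized RNA was less negative than that in steady-state RNA for 43 of 53 members, against 82.7% of all tested genes. The median difference was 0.37 for members and 0.39 for all genes. By limma 0 members passed a test of that difference in either direction, while 1.19% of tested genes were less negative and 0.138% more negative in newly synthesized RNA. At an unadjusted p under 0.05 there were 9 members, against 25.8% of tested genes. NOP14 had the largest difference, 0.98 (adjusted p 0.0708 by limma), followed by UTP18 at 0.89 (0.112). Of the 10 members with the opposite sign, RRP36 had the largest difference, -0.52 (0.276), and RRP7 had -0.44 (0.363). The count depended on the processing: 40 members passed, all less negative in newly synthesized RNA, under the loess scaling, where 56.9% of all tested genes did so. It was 10 without steady-state rapamycin replicate 2 (24.8% of tested genes), 7 without steady-state DMSO replicate 1 (17.4%), and 8 with the replicate number as a block (23%).

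**Figure D3:**
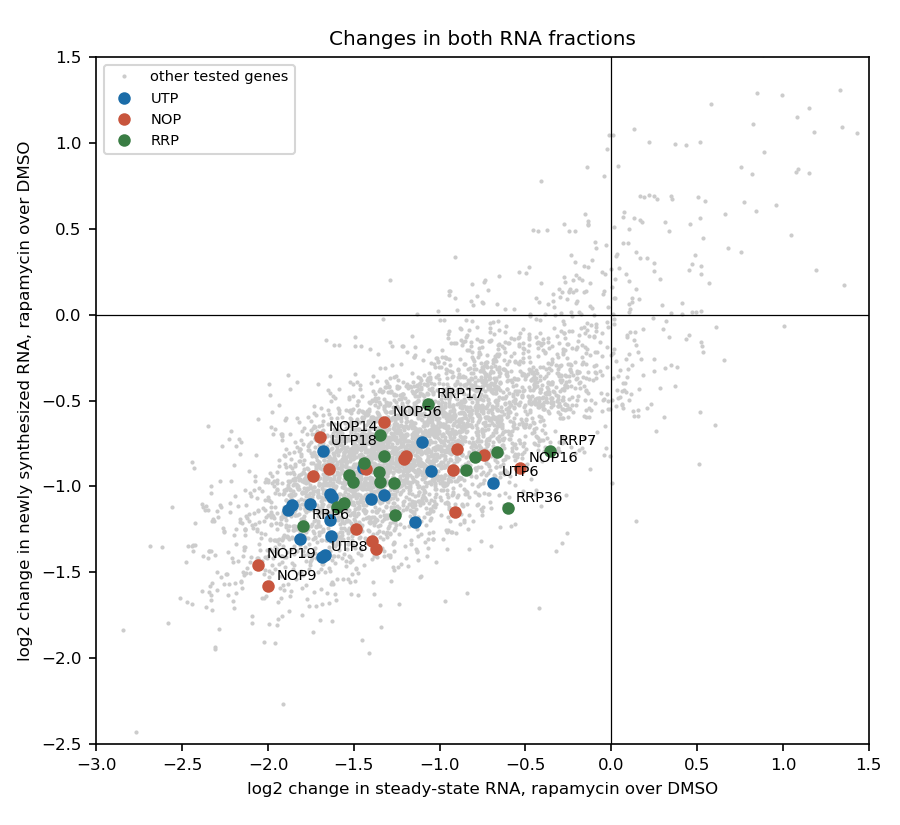
Log2 change with rapamycin in steady-state RNA (horizontal axis) and in newly synthesized RNA (vertical axis), relative to S. pombe, for 4360 tested genes; 15 lie outside the axes. Coloured points are the 53 assembly genes, and 12 of them are named. The coloured points lie below and left of both zero lines; NOP9 and NOP19 are at its lower left end, and RRP7, NOP16, RRP36 and UTP6 lie to the right with shallow steady-state changes.

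Across the 53 members the changes in the fractions had a Spearman rho of 0.49, against 0.69 over all tested genes. These are descriptions across genes, whose points share the same 8 arrays and the same S. pombe shifts. Coding lengths of the members run from 177 to 7482 bases. The steady-state change was more negative in longer members (rho -0.48, and -0.39 over all 4360 genes), while rho was -0.08 in newly synthesized RNA (-0.12 over all genes).

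Newly synthesized signals were set against steady-state signals within each treatment, under fraction labels that are uncertain. The fractions are different preparations, so each value compares signals relative to the S. pombe RNA of its own fraction. With rapamycin, 49 of 53 members were lower in newly synthesized than in steady-state RNA and 0 higher (limma), where 71.4% of tested genes were lower and 1.1% higher. The member median was -1.01 and the all-gene median -0.83. NOP56 (-0.46, adjusted p 0.0589 by limma), RRP17 (-0.47, 0.0694), NOP1 (-0.23, 0.322) and RRP40 (-0.20, 0.395), a cap subunit of the exosome, did not pass. With DMSO, 52 members were lower and 0 higher, where 83.1% of tested genes were lower and 2.57% higher. The median was -1.43 over members and -1.27 over all genes. The exception was NOP1 (YDL014W), with 10.90 and 10.96 in newly synthesized and 10.98 and 10.87 in steady-state RNA with DMSO. Its groups overlapped completely, with a log2 difference of 0.00 (adjusted p 0.987 by limma). NOP1 also came close in the rapamycin arrays, at 9.78 and 9.77 in newly synthesized and 9.93 and 10.09 in steady-state RNA. These counts depend on the scaling. With equal S. cerevisiae medians 15 members were lower and 5 higher with rapamycin, against 18.3% and 34.8% of tested genes. With DMSO 14 were lower and 10 higher, against 22.6% and 37.7%.

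At the other extreme with DMSO were NOP19, 4.81-fold lower in newly synthesized than in steady-state RNA, and UTP15, with a log2 difference of -2.11. UTP genes had a median of -1.24 with rapamycin and -1.69 with DMSO. NOP genes had -1.04 with rapamycin and -1.42 with DMSO, and RRP genes -0.88 with rapamycin and -1.26 with DMSO. The S. pombe probe sets moved between the fractions too, with 53 lower and 93 higher with rapamycin and 363 lower and 584 higher with DMSO, and their part in these values was not tested. With DMSO the difference between fractions was more negative in longer members (rho -0.57, and -0.48 over all tested genes).

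Partner genes that carry other names, from the same complexes and assembly steps, were read from the same fit. All 75 listed partners were tested, and 75 were lower and 0 higher in both newly synthesized and steady-state RNA, where 79.4% and 86.8% of all tested genes were lower. Their medians were -0.97 and -1.36, beside all-gene medians of -0.78 and -1.17. The order of 2 roles was the reverse of that among the members. The 16 other small-subunit partners had medians of -0.95 and -1.26, and the 41 large-subunit partners -1.07 and -1.42. Among the members the other small-subunit factors had -1.21 and -1.64 and the large-subunit factors -0.90 and -1.19. The deepest falls in newly synthesized RNA were in IPI1, of the complex that acts on the internal spacer (-1.50), NOC3, a large-subunit export factor (-1.44), HAS1, a DEAD-box helicase (-1.43), and NMD3, the export adaptor of the large subunit (-1.42). CBF5, the pseudouridine synthase of box H/ACA snoRNPs, changed by -1.30, and GAR1 and NHP2 of the same particles by -0.88 and -0.72. PWP2 (UTP1) and DIP2 (UTP12), the UTPB subunits with other names, changed by -0.97 and -1.001. DIS3, the catalytic exosome subunit, and MTR4, its helicase, changed by -1.07 and -1.08.

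The spike-in offered genes of the same names in cells for which no rapamycin is named. On the array 17 S. pombe probe sets carry a utp, nop or rrp name, and 16 of them share it with a member. In newly synthesized RNA 0 of the 17 passed by limma, with changes between -0.17 and 0.26. Of all 1397 tested S. pombe probe sets 0 passed there too, with an SD of changes of 0.16. The S. cerevisiae gene changed more negatively in 16 of 16 pairs (median of S. cerevisiae minus S. pombe -1.05). That S. pombe values centre near 0 follows from the shift, while their narrow range does not. In steady-state RNA the S. cerevisiae gene was again the more negative in 16 of 16 pairs (median difference -1.52), but 4 of the 17 S. pombe probe sets were lower and 3 higher, from -0.60 (utp10) to 1.57 (nop10), where 21.9% of all tested S. pombe probe sets were lower and 32.3% higher. With S. pombe centred near 0 and most tested S. cerevisiae genes lower, both counts of 16 pairs were largely fixed in advance. They do not set the assembly genes apart. Shared names were taken as given and orthology was not checked.

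**Figure D4:**
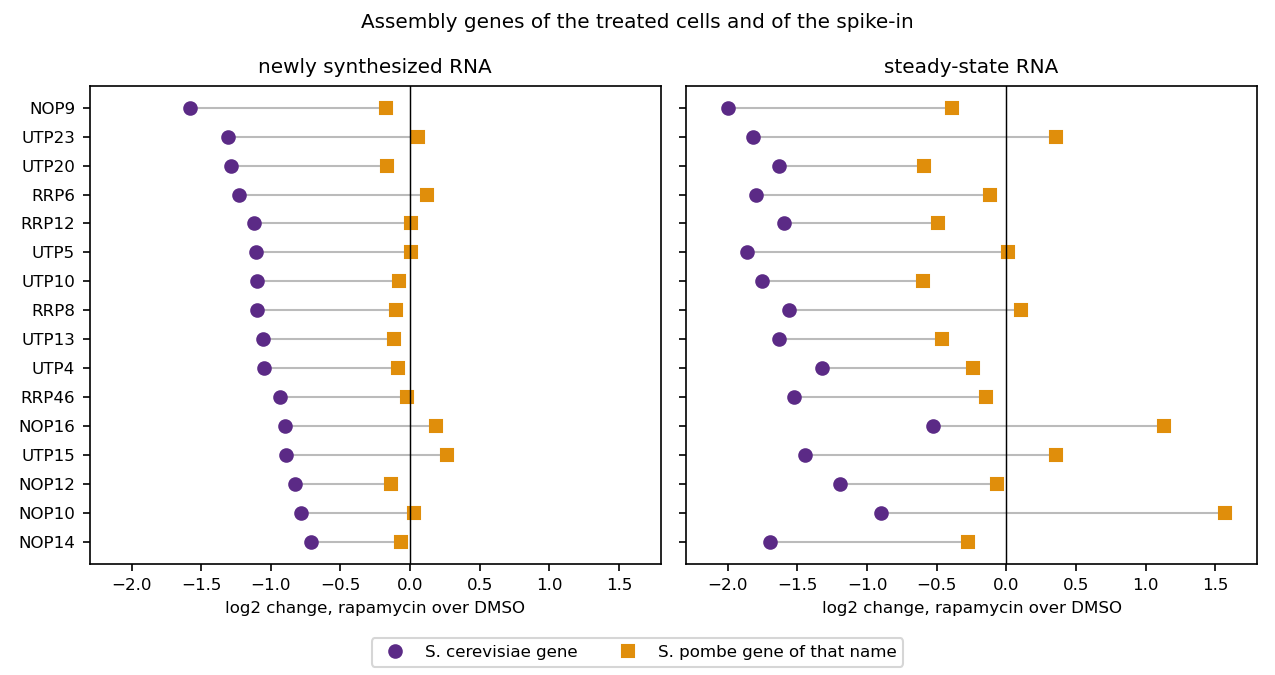
Log2 change (horizontal axis, rapamycin over DMSO, S. pombe medians equal) of 16 S. cerevisiae assembly genes (circles) and the S. pombe probe sets of the same name (squares), in newly synthesized RNA (left) and steady-state RNA (right), 2 arrays a group. Grey lines join the pairs. Every circle lies left of its square; in newly synthesized RNA the squares stay between -0.17 and 0.26, and in steady-state RNA nop10 and nop16 reach 1.57 and 1.13.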

How the data were processed

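Affymetrix Yeast Genome 2.0 arrays, 1 sample each, measured RNA. The authors deposited intensity values on a linear scale, made with Affymetrix Expression Console 1.4.1 per the submitters' processing notes. The sources used here do not give the summary algorithm, background correction or scaling. The mean after trimming 2% at each end was 500.2 to 500.4 in the columns labelled Taf4, so each column had been scaled over both species together. For rapamycin the labels' protocols state 1 µg/mL, while the design text of the series states 5 µM.

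Equality between columns was tested within 0.001 signal units after division by 5, and 10 distinct arrays were found. Values were taken as log2 and each array was shifted to an equal S. pombe median. Each gene was read from its probe set of highest mean, the lowest 20% of 5449 genes were left out, and 4360 were tested with limma 3.58.1 under R 4.3.3 (lmFit, then eBayes, over 8 arrays, two-sided, Benjamini-Hochberg over all tested genes of a contrast, threshold 0.05). S. pombe probe sets went through the same fit. The fit was tested on simulated data. With 2 arrays against 2, an exact permutation test cannot go below 0.333, and the number of arrays limits precision. No sequences were used, and gene positions of the R64 annotation served only for chromosomes, neighbours and coding lengths.

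Members, roles and partner lists were chosen with earlier results of these data known. Array values are given for the 2 most and 2 least negative members of each family in each rapamycin contrast, the brightest of each role and any that did not pass. The values of NOP1 per array, and the partner genes named, were picked after their values were seen. As alternatives, 3 other scalings were tried (as deposited, equal S. cerevisiae medians, and a loess fit to the S. pombe probe sets with span 0.7), together with no filter, leaving out 40%, averaging probe sets, an intensity trend in eBayes, fitting only the 4 arrays of a fraction, a replicate block and dropping each array in turn.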

Additional observations from a re-analysis of the deposited data

Results flagged for a closer look

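S. pombe nop10 and nop16 differed between the fractions in their change from DMSO to rapamycin arrays, by an interaction term in limma. Of 1397 tested S. pombe probe sets 24.3% were lower and 8.38% higher in this test. Of the 17 that share a family name 2 were lower and 0 higher, so the count does not set them apart. The nop10 probe set had 11.90 and 11.90 in newly synthesized RNA with rapamycin, against 11.85 and 11.89 with DMSO, and 11.78 and 11.45 in steady-state RNA with rapamycin, against 10.08 and 10.02 with DMSO. Its change in newly synthesized RNA minus that in steady-state RNA was -1.54 (adjusted p 0.000391 by limma). For nop16 the difference was -0.94 (adjusted p 0.0044 by limma), with changes of 0.19 in newly synthesized and 1.13 in steady-state RNA. The S. pombe cells were a spike-in for which no rapamycin is named. The S. cerevisiae NOP10 and NOP16 genes had differences of 0.12 and -0.36 in the same test, and neither passed (adjusted p 0.826 and 0.458 by limma).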

How the results depend on the processing

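The scaling moved the values most. As deposited, 46 members were lower in newly synthesized RNA (48.5% of tested genes) and 44 in steady-state RNA (68.3%). There 13 calls of named members were lost. The member medians were -0.60 (newly synthesized, rapamycin against DMSO), -0.87 (steady-state), -0.73 (newly synthesized against steady-state with rapamycin) and -1.0001 (with DMSO). In the difference of changes 1 member was higher (2.02% of tested genes), and between fractions with DMSO 1 was (8.33%). RRP7 in steady-state RNA then changed by 0.17. With equal S. cerevisiae medians, newly synthesized RNA had 10 members lower (median -0.15), against 8.88% of tested genes. Steady-state RNA had 17 lower and 10 higher (-0.13), against 17.9% and 32.1%. The difference of changes had 3 lower (-0.071, the reverse of 0.37), against 1.4% of tested genes. The fractions with rapamycin had 15 lower and 5 higher (-0.074), against 18.3% and 34.8% of tested genes. Those with DMSO had 14 lower and 10 higher (-0.053), against 22.6% and 37.7%. Under this scaling the following named members turned above 0 in newly synthesized RNA: NOP14 0.11, NOP15 0.0093, NOP56 0.20, RRP17 0.31, RRP5 0.13, RRP7 0.031, UTP18 0.034 and UTP22 0.083. In steady-state RNA they were NOP15 0.53, NOP16 0.74, NOP58 0.063, RRP1 0.010, RRP17 0.20, RRP36 0.67, RRP42 0.48, RRP7 0.92, UTP22 0.17, UTP6 0.58 and UTP9 0.22. This follows from its construction, which takes the common fall out. The loess curve gave medians of -2.01 (steady-state), 1.11 (difference of changes, 40 members and 56.9% of tested genes higher) and -2.24 (fractions with DMSO). The intensity trend gave 2 members higher in the difference of changes, against 4.45% of tested genes.

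The replicate numbers are given by the labels, and the main fit did not take them as pairs. Across genes, deviations of same-numbered arrays correlated between -0.018 and 0.17, a check that cannot see a shift of whole arrays. The median tested gene was higher on replicate 2 than on replicate 1 in each of the 4 groups, as in steady-state RNA with DMSO (9.99 against 9.66). Whether same-numbered arrays are pairs was not settled. With the replicate block 8 members were higher in the difference of changes (23% of tested genes), against 0 without it (1.19%), and every other count was within 1.5 times. Leaving out 1 array gave member medians of -1.06 to -0.90 in newly synthesized RNA, beside all-gene medians of -0.85 to -0.70. In steady-state RNA they were -1.59 to -1.18, beside -1.35 to -1.01 over all genes. Between fractions the member medians were -1.20 to -0.82 with rapamycin and -1.63 to -1.23 with DMSO, and in the difference of changes 0.23 to 0.59. The cause of these shifts was not tested. The filters and the mean over probe sets changed no count of members by more than 1.5 times.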

Other observations

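Only 2 columns labelled Taf5 equal no Taf4-labelled column, and they are single arrays with no partner of their own group that is not a copy. The genotype field names TAF4-FRB for these samples too, so the labels do not settle which subunit was tagged in them. Relative to the same S. pombe median, the 53 assembly genes had a median of 9.36 on the newly synthesized array with rapamycin, which was 1.19 above the median of the tested genes. The steady-state array with DMSO had a median of 9.85, which was 0.99 above that of the tested genes. On the 8 Taf4-labelled arrays the same gap was 0.93 to 1.05 with rapamycin and 1.27 to 1.30 with DMSO. The gap of the single arrays was thus larger with rapamycin than with DMSO, the reverse of the Taf4-labelled arrays. These 2 arrays also differ in fraction label, and no test was made with them.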
